A study of Mus musculus with 17 samples.

Results

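The genes described are 10 genes of protein folding in the endoplasmic reticulum (ER) and of the unfolded protein response: Hspa5, Hsp90b1, Calr, Pdia3, Pdia4, Pdia6, Xbp1, Sdf2l1, Hyou1 and Dnajb9. They were found by the gene symbol that the array's annotation gives to each probe, which returned 13 of 45281 probes. The array names 19057 genes in all. All 10 genes had a probe above background on at least 3 arrays and are among the 10717 genes tested. Calr, Pdia6 and Dnajb9 had a second probe each.

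The ER folds proteins that will be secreted or placed in membranes, and ER chaperones hold them while disulfide bonds and sugars are added. When unfolded proteins build up, the sensors Ern1 (IRE1), Eif2ak3 (PERK) and Atf6 start the unfolded protein response: IRE1 splices the mRNA of the transcription factor Xbp1, PERK slows translation and favours that of the transcription factor Atf4, and Atf6 is cut into an active form. Spliced Xbp1 and Atf6 raise chaperone genes, and in T cells the response is known to be engaged when activated cells grow and make cytokines and cytotoxic granules.

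RNA came from mouse CD8 T cells of C57Bl/6 background, aged 2 to 6 months, all OT-I, whose transgenic T-cell receptor sees an ovalbumin (OVA) peptide. Tpm (4 arrays; the labels do not spell the name out) were primed by liver sinusoidal endothelial cells (LSEC) in coculture, and Teff (5 arrays) were effector cells activated by splenic dendritic cells. Memory cells (3 arrays) came from spleens of mice infected 3 months earlier with Listeria monocytogenes carrying OVA, and naive cells (5 arrays) from spleens without such treatment. The source given for Teff 8 is the spleen, unlike that of the other Teff arrays, while its title names Teff. No label says whether arrays of a group are separate mice or cultures, and the p-values then cover no more than the spread among these samples.

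Arrays are named by their group and their sample number. The mean signal of 15 arrays was 227 to 471, and it was lower on memory 3 (140) and memory 5 (96.7, with 19.9% of probes above background). Arrays of the same group correlated across genes with coefficients of 0.917 to 0.989. Sex-linked genes had a male pattern on 3 arrays, naive 13, Tpm 14 and Teff 17. Of 9 CD8 T-cell markers tested, 8 or 9 were above background on each array of Tpm and naive cells and 8 on each array of Teff and memory cells. Cd8a was above background on only 1 Tpm and 1 memory array, so the label rests on Cd8b1 and the Cd3 genes, which were above background on every array. In bulk RNA, fewer cells of a type and less RNA per cell cannot be told apart, and the number of arrays limits the precision.

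The promoter windows are shown first because the unfolded protein response acts on several of these genes through 1 known sequence, the ER stress response element (ERSE), in which a CCAAT box and a CCACG box are set apart by 9 bases. The motif, CCAAT, then any 9 bases, then CCACG, was searched on both strands from 250 bases before to 50 bases after each start in RefSeq promoters of build GRCm38.p6, where 9 of the 10 genes had an entry. Capitals mark the boxes, or their complements where the match lies on the opposite strand.
Hspa5, chr2:34772005-34772063 (plus strand): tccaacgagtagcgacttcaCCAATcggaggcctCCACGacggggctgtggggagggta
Hsp90b1, chr10:86705513-86705676 (minus strand): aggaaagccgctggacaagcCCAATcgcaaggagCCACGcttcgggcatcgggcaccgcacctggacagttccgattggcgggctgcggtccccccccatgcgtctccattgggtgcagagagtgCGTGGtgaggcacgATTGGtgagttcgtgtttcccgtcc
Calr, chr8:84847055-84847113 (minus strand): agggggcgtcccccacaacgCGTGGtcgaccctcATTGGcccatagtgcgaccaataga
Pdia6, chr12:17266471-17266529 (plus strand): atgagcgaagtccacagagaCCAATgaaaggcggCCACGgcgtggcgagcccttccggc
Sdf2l1, chr16:17132384-17132483 (minus strand), the 100 bases before the start: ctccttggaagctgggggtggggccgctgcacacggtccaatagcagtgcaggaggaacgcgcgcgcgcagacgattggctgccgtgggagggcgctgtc
Dnajb9, chr12:44210069-44210168 (minus strand), the 100 bases before the start: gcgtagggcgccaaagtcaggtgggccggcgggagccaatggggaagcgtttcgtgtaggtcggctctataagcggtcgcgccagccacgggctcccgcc

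The exact motif stood in 4 of the 9 promoters. It lay 65 to 47 bases before the start in Hspa5, 98 to 80 in Pdia6 and, on the opposite strand, 162 to 144 in Calr, and Hsp90b1 held it on the same strand (212 to 194) and on the opposite strand (107 to 89). Over all 32851 promoters of that source, 39 or 0.119% held it. The motif was chosen because it is known to act on several of these genes, so the 2 shares are a description and no test. Of 95 genes in the other pathway lists described below, 6 or 6.32% held it: Canx, Creld2, Derl3, Dnajc3, Ero1b and Syvn1. Sdf2l1 and Dnajb9, whose windows are shown because their transcripts differed most between the groups, held no exact match, nor did Pdia3, Pdia4 and Xbp1. Of 2 further motifs searched on both strands, ERSE-II (ATTGG, any 1 base, CCACG; 0.0365% of all promoters) and TGACGTGG (the unfolded protein response element, UPRE; 0.676%), neither was in any of the 9 windows. Neither overlaps the ERSE matches, and a missing match says only that these letters are not in the window.

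The 10 genes did not move as 1 block. Dnajb9 was lower in Tpm, Teff and memory cells than in naive cells, with the lowest levels in Teff, and Sdf2l1 was highest in Teff. Xbp1 was lower in Tpm and memory cells than in both Teff and naive cells, by less than 2-fold. Hsp90b1 and Pdia3 were higher in Teff than in naive cells, also by less than 2-fold. These smaller differences of Xbp1, Hsp90b1 and Pdia3 depended on the scaling of the arrays, and Calr passed the test in no comparison. Levels are log2 of the background-corrected intensity plus 16 after quantile normalization, a scale that understates the change of dim genes. Calls needed both an adjusted p under 0.05 (limma, Benjamini-Hochberg over all 10717 genes of a comparison) and a 2-fold difference, or 1 in log2 units. Scaling arrays to their medians instead (median scaling) shifted genes as a whole in comparisons with memory cells. The median of all genes became -0.79 in memory against naive cells, -1.09 in memory cells against Teff and 1.02 in Tpm against memory cells. Values given below under median scaling include that shift.

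**Figure D1:**
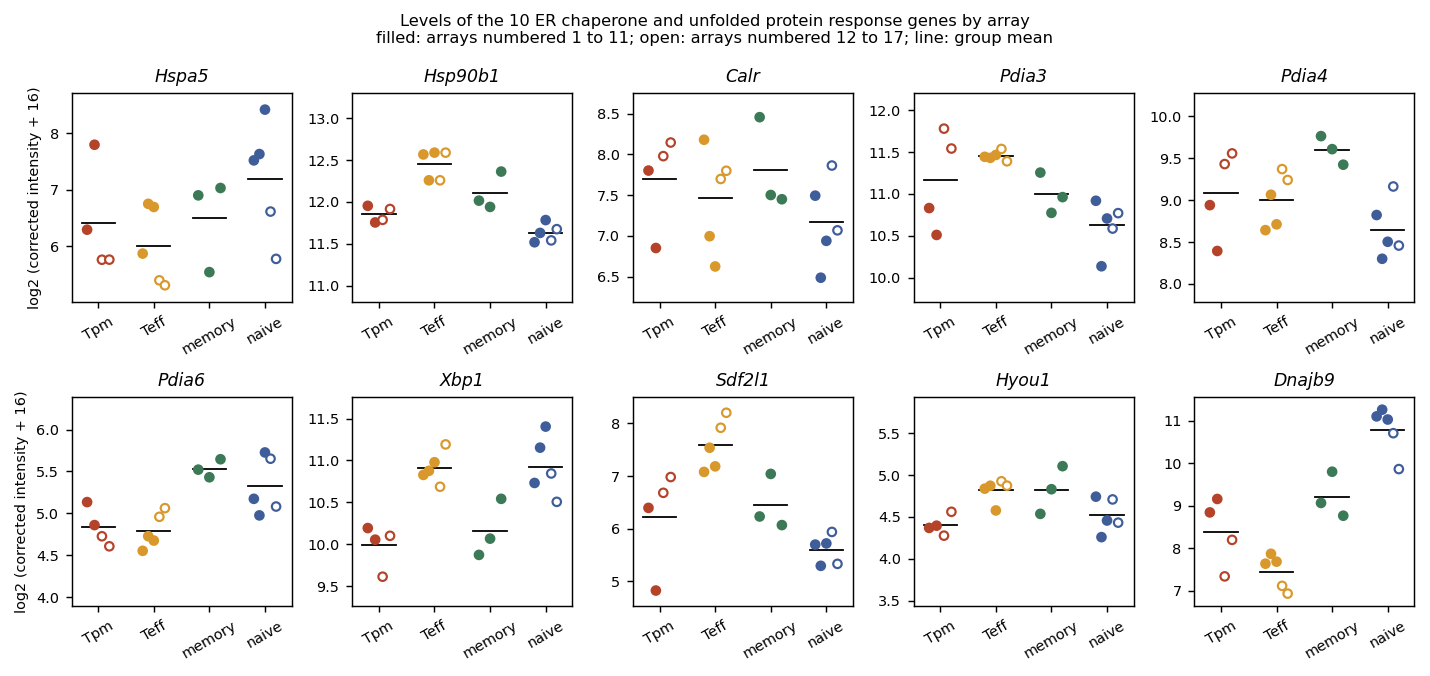
Each panel shows 1 gene, with its log2 level on the y axis for every array of Tpm, Teff, memory and naive cells. Filled points are arrays numbered 1 to 11, open points arrays numbered 12 to 17, and the line is the group mean: Dnajb9 lies highest on the naive arrays, Sdf2l1 highest on the Teff arrays, and Hspa5 lower on the open than on the filled points of Tpm, Teff and naive cells.

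Dnajb9 (ERdj4; chr12:44205897-44210068) is a J-domain partner that brings the chaperone Hspa5 to unfolded proteins and to the sensor IRE1, and it is a known target of spliced Xbp1. Its level was 8.84, 9.16, 7.34 and 8.19 on the Tpm arrays, 7.63, 7.87, 7.68, 7.11 and 6.93 on the Teff arrays, 9.06, 9.80 and 8.76 on the memory arrays and 11.10, 11.26, 11.03, 10.70 and 9.86 on the naive arrays. Each naive array lay above each array of the other groups, though naive 13, at 9.86, was close to memory 5, at 9.80. Teff and Tpm overlapped.

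Dnajb9 averaged 8.38 ± 0.80 in Tpm (SD, n = 4) and 10.79 ± 0.56 in naive cells (SD, n = 5), a difference of -2.41 with a standard error of 0.36 (limma adjusted p = 7.35e-05). In Teff it averaged 7.45 ± 0.40 (SD, n = 5), which was 3.34 below naive cells (-3.34; limma adjusted p = 2.88e-07) and is a 10.15-fold difference. In memory cells it averaged 9.21 ± 0.53 (SD, n = 3), with a difference of -1.58 from naive cells (limma adjusted p = 0.00675). Memory cells were 1.76 above Teff (limma adjusted p = 0.00136), a call that was lost without memory 3 and memory 5 (1.32, adjusted p = 0.097) and turned to -0.24 (adjusted p = 0.698) when arrays were scaled to their medians in place of quantile normalization. Under median scaling the median of all genes in that comparison was -1.09, and Dnajb9 lay 0.85 above it. Tpm and Teff differed by 0.94 (limma adjusted p = 0.0577) and Tpm and memory cells by -0.83 (adjusted p = 0.153), neither of which passed, though Tpm against Teff did without Tpm 14 (1.29, adjusted p = 0.00736).

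The other Dnajb9 probe gave the same order of groups. Its differences from naive cells were -2.70 in Tpm, -3.32 in Teff and -1.51 in memory cells, and it lay 1.81 higher in memory cells than in Teff. It had no overlap between naive arrays and those of Tpm or Teff, but memory and naive arrays overlapped on it.

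Sdf2l1 (chr16:17130138-17132383), an ER-resident partner of the Hspa5 chaperone system known to be induced by ER stress, ran the other way. Its level was 6.40, 4.83, 6.68 and 6.98 on the Tpm arrays, 7.08, 7.54, 7.18, 7.92 and 8.20 on the Teff arrays, 6.23, 7.04 and 6.07 on the memory arrays and 5.70, 5.30, 5.72, 5.94 and 5.33 on the naive arrays. All 5 Teff arrays lay above all arrays of the other groups, though Teff 6 (7.08) was close to memory 5 (7.04), and Tpm 7 was the lowest of all 17.

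Sdf2l1 averaged 7.58 ± 0.48 in Teff (SD, n = 5) and 5.60 ± 0.28 in naive cells (SD, n = 5), a difference of 1.98 with a standard error of 0.34 or 3.96-fold (limma adjusted p = 0.000117). It was called lower in Tpm, at 6.22 ± 0.96 (SD, n = 4), than in Teff by -1.36 (limma adjusted p = 0.00788). That call rested on Tpm 7: without it the difference was -0.90 (adjusted p = 0.0249), under 2-fold, and Tpm against naive cells, 0.62 with all arrays (adjusted p = 0.238), became 1.09 (adjusted p = 0.00871). Memory cells, at 6.45 ± 0.52 (SD, n = 3), lay -1.14 from Teff (limma adjusted p = 0.0276), a call lost under 12 of 31 alternatives, among them without memory 3, memory 9, Teff 16 or Teff 17 (-1.05 to -0.95 there), and 0.85 from naive cells without passing (adjusted p = 0.138). The highest memory value, on memory 5, came from a raw signal of 90.2 over a background mode of 81.3. Without memory 5 the differences were -1.43 from Teff, still called, and 0.55 from naive cells.

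Xbp1 (chr11:5520641-5525993) encodes the transcription factor whose spliced form drives chaperone and degradation genes. A single probe stood for it, and spliced and unspliced transcripts were not measured separately. Its level was 10.19, 10.05, 9.61 and 10.10 on the Tpm arrays, 10.83, 10.88, 10.98, 10.69 and 11.19 on the Teff arrays, 9.87, 10.07 and 10.54 on the memory arrays and 10.73, 11.15, 11.40, 10.84 and 10.51 on the naive arrays. Every Tpm array lay below every Teff and naive array, every memory array lay below every Teff array, and memory 9, at 10.54, lay just above naive 13, at 10.51.

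The difference in Xbp1 was -0.94 between Tpm and naive cells (limma adjusted p = 0.00191) and -0.92 between Tpm and Teff (adjusted p = 0.00184). It was -0.77 between memory and naive cells (limma adjusted p = 0.0171) and -0.75 between memory cells and Teff (adjusted p = 0.0101). All 4 passed the adjusted p and not the 2-fold limit. Tpm against naive cells passed both without Tpm 4 (-1.01) or without naive 13 (-1.04). Under median scaling it was -0.81 (adjusted p = 0.433) and Tpm against Teff -1.11 (adjusted p = 0.198), neither passing, while memory cells were called at -2.55 from naive cells (adjusted p = 0.00408) and at -2.84 from Teff (adjusted p = 0.000565). Relative to the median of all genes, the memory values there were -1.76 and -1.75. Teff and naive cells differed by -0.02, with a 95% interval of -0.41 to 0.38 (limma adjusted p = 0.961).

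Hspa5 (BiP; chr2:34772090-34776529), the Hsp70 chaperone that binds unfolded chains and keeps the sensors inactive, varied widely inside the groups. Its level was 6.29, 7.80, 5.76 and 5.76 on the Tpm arrays, 5.87, 6.75, 6.69, 5.39 and 5.30 on the Teff arrays, 6.90, 5.54 and 7.03 on the memory arrays and 7.52, 7.63, 8.42, 6.61 and 5.77 on the naive arrays. All groups overlapped, and memory 5 was not above background. Teff lay -1.19 from naive cells (limma adjusted p = 0.0645), which did not pass, and it was called under 9 of 32 alternatives, among them without memory 5, Tpm 7, Teff 8 or naive 13 (-1.55 to -1.19 there). The spread followed the sample number: arrays numbered 12 to 17 lay below those numbered 1 to 11 without overlap in Tpm (means 5.76 and 7.05), in Teff (5.35 and 6.44) and in naive cells (6.19 and 7.86).

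Other genes also split by sample number. Dnajb9 was lower on the later arrays without overlap in Tpm, Teff and naive cells. In Tpm, with 2 arrays in each range, Calr, Pdia3, Pdia4, Pdia6 and Sdf2l1 did not overlap either, nor in Teff did Pdia4, Pdia6, Sdf2l1 and Hyou1. The labels give no batch, and the memory arrays carry no number above 9. With the 2 ranges of sample numbers as a covariate, Hspa5 was -1.35 lower on the later arrays (limma adjusted p = 0.0074) and Dnajb9 -0.91 (adjusted p = 0.00704), while the other 8 genes did not pass. Of all genes tested 786 passed, or 7.33%. In that fit Hspa5 in Teff against naive cells, still -1.19, passed (adjusted p = 0.00671), and Dnajb9 in Tpm against Teff was called at 1.03 (adjusted p = 0.00268). Memory against naive cells gained 3 calls in it: Hspa5 at -1.24, Pdia4 at 1.16 and Sdf2l1 at 1.11 (limma adjusted p = 0.0318, 0.000864 and 0.0288). Sdf2l1 in memory cells against Teff no longer passed (-0.87, adjusted p = 0.056). Within arrays 1 to 11 Hspa5 in Teff lay -1.42 from naive cells and passed (adjusted p = 0.0474).

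Hsp90b1 (GRP94; chr10:86690841-86705444), the ER member of the Hsp90 family, which folds integrins and Toll-like receptors, varied little inside the groups. Its level was 11.95, 11.76, 11.79 and 11.92 on the Tpm arrays, 12.57, 12.26, 12.59, 12.26 and 12.59 on the Teff arrays, 12.02, 11.94 and 12.36 on the memory arrays and 11.52, 11.63, 11.78, 11.54 and 11.68 on the naive arrays. Teff arrays lay above all Tpm and naive arrays, and memory arrays above all naive arrays. The differences were 0.82 between Teff and naive cells (limma adjusted p = 6.22e-05), -0.60 between Tpm and Teff (adjusted p = 0.00329) and 0.48 between memory and naive cells (adjusted p = 0.0332), all under 2-fold. Under median scaling none of the 3 passed: they were 1.13 (adjusted p = 0.0837), -0.77 (adjusted p = 0.389) and, turned in direction, -1.33 (adjusted p = 0.0573). The last was -0.54 relative to the median of all genes.

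Pdia3 (ERp57; chr2:121413902-121438687) is a disulfide isomerase that works with calreticulin on glycoproteins and in loading peptides onto MHC class I. Its level was 10.83, 10.51, 11.78 and 11.54 on the Tpm arrays, 11.44, 11.43, 11.47, 11.54 and 11.39 on the Teff arrays, 11.26, 10.77 and 10.96 on the memory arrays and 10.92, 10.14, 10.71, 10.59 and 10.77 on the naive arrays. The Teff arrays lay close together and above all memory and naive arrays, while Tpm fell apart into a pair near naive levels (Tpm 4 and Tpm 7) and a pair at or above Teff (Tpm 14 and Tpm 15). These pairs are also the 2 ranges of sample numbers (means 10.67 and 11.66), which overlapped in Teff and in naive cells. Teff were 0.83 above naive cells (limma adjusted p = 0.00435), under 2-fold, and the other 5 differences did not pass. Under median scaling it was 1.15 and did not pass (adjusted p = 0.112), while Pdia3 was 2.15 higher in Tpm than in memory cells (adjusted p = 0.0104) and -2.63 lower in memory cells than in Teff (adjusted p = 0.0014). Relative to the median of all genes, the differences with memory cells there were 1.12 and -1.53.

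Calr (calreticulin; chr8:84842088-84846931), the calcium-binding lectin chaperone of the same cycle, overlapped between all groups. Its level was 7.80, 6.85, 7.98 and 8.15 on the Tpm arrays, 8.18, 7.00, 6.63, 7.70 and 7.80 on the Teff arrays, 8.46, 7.50 and 7.45 on the memory arrays and 7.49, 6.49, 6.94, 7.86 and 7.07 on the naive arrays. Differences from naive cells were 0.52 in Tpm (95% interval -0.22 to 1.27), 0.29 in Teff (-0.42 to 1.00) and 0.63 in memory cells (-0.18 to 1.45), so that a 2-fold rise lay inside the interval in Tpm and memory cells. A second Calr probe was not above background on any array and was not tested.

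Pdia4 (ERp72; chr6:47796141-47813512), another disulfide isomerase, was highest in memory cells. Its level was 8.94, 8.39, 9.43 and 9.56 on the Tpm arrays, 8.64, 9.07, 8.71, 9.37 and 9.24 on the Teff arrays, 9.77, 9.61 and 9.42 on the memory arrays and 8.82, 8.30, 8.50, 9.16 and 8.46 on the naive arrays. The memory arrays lay above all Teff and naive arrays. Memory cells were 0.95 above naive cells (limma adjusted p = 0.0148), just under 2-fold, and passed it without memory 9 (1.04), without naive 12 (1.08) and within arrays 1 to 11 (1.06). With median scaling memory cells lay -0.72 from naive cells (adjusted p = 0.357), the other direction, and -1.46 from Teff (adjusted p = 0.0415), where quantile normalization gave 0.59 (adjusted p = 0.0829). Relative to the median of all genes, these values under median scaling were 0.06 and -0.37.

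The 2 probes of Pdia6 (P5; chr12:17266589-17284785), a disulfide isomerase of the Hspa5 complex, went against each other. The probe that stands for the gene, at 4.55 to 5.73 over all arrays, was above background on 12 of 17 and lay -0.53 lower in Teff than in naive cells (limma adjusted p = 0.0193) and 0.74 higher in memory cells than in Teff (adjusted p = 0.00626). It also lay -0.70 lower in Tpm than in memory cells (limma adjusted p = 0.0197). The other probe, above background on 11 arrays, was higher than in naive cells by 0.82 in Tpm (limma adjusted p = 0.0393) and by 0.74 in Teff (adjusted p = 0.0288). Both sets of values lay near background, so the direction of Pdia6 depended on the probe.

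**Figure D2:**
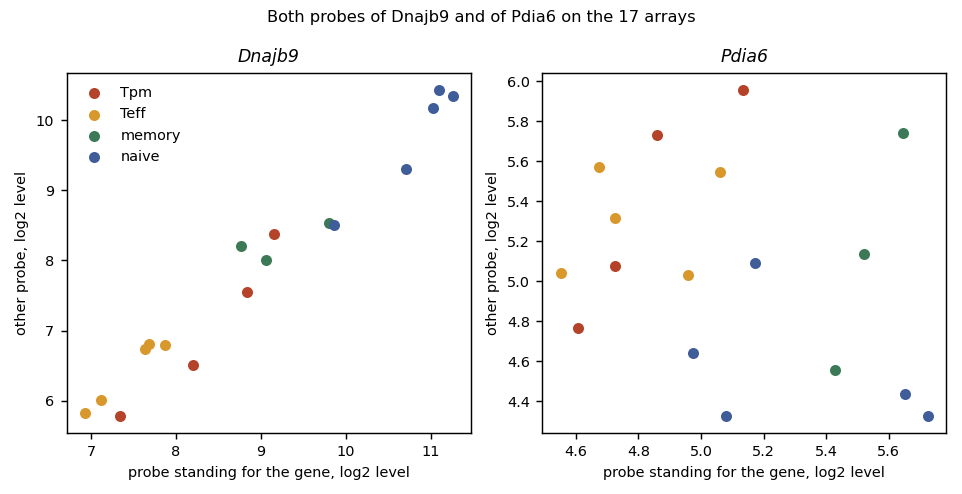
Each point is 1 array, with the log2 level of the probe that stands for the gene on the x axis and that of the gene's other probe on the y axis. The Dnajb9 probes ordered the arrays alike, with the naive arrays at the top right, and the Pdia6 probes did not: naive arrays lay toward the right on 1 probe and toward the bottom on the other.

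Hyou1 (GRP170; chr9:44379490-44392369), which exchanges the nucleotide bound to Hspa5, was the dimmest of the 10. Its probe was above background on 3 Teff arrays, 1 memory array, 1 naive array and no Tpm array, with levels of 4.26 to 5.11 over all 17. Tpm, at 4.40 on average, were not well above background and lay under Teff, at 4.82, by at least 1.00-fold (limma adjusted p = 0.0496), a bound that leaves no measurable size.

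Counted over the genes, Teff against naive cells gave 1 called higher (Sdf2l1, where 13.2% of all genes were higher) and 1 called lower (Dnajb9, against 10.4%), so 2 in either direction (23.6%). Tpm against naive cells gave 0 higher and 1 lower, Dnajb9, where 8.3% and 4.75% of all genes were. Tpm against Teff gave 0 higher and 1 lower, Sdf2l1, against 7.35% and 7.62%. Memory against naive cells gave 0 higher and 1 lower, Dnajb9, against 5.54% and 6.85%. Memory cells against Teff gave 1 higher, Dnajb9, and 1 lower, Sdf2l1, against 10.6% and 15.1%. Tpm against memory cells gave 0 of 10 with limma, where 9.51% of all genes were higher and 5.09% lower (14.6% in all), and 2 of 10 passed an unadjusted p under 0.05. These counts are close to the shares among all genes.

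With an adjusted p under 0.05 at any size, 5 of 10 passed in Teff against naive cells (42.4% of all genes), 2 in Tpm against naive cells (25.6%) and 4 in Tpm against Teff (28.9%). It was 4 in memory against naive cells (21.3%), 4 in memory cells against Teff (40.5%) and 1 in Tpm against memory cells (24.4%). Groups did not overlap for 4 of the 10 genes in Teff against naive cells (37.6% of all genes), 2 in Tpm against naive cells (23%) and 4 in Tpm against Teff (27.2%). For memory cells it was 4 against naive cells (21.8%) and 6 against Teff (38.3%), and for Tpm against memory cells 1 (24.6%). The median difference of the 10 genes from naive cells was 0.05 in Tpm, 0.29 in Teff and 0.34 in memory cells, where that of all genes was 0.05, 0.00 and -0.05. These medians hold for quantile normalization. Under median scaling the differences of memory from naive cells ran from -3.29 (Dnajb9) to 0.43 (Pdia6), where the median of all genes was -0.79. The Pdia6 values under that scaling, also 0.76 in Tpm and 0.89 in Teff against naive cells, had the direction of its other probe and are not an effect of scaling alone. Comparisons with naive cells share the naive arrays.

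**Figure D3:**
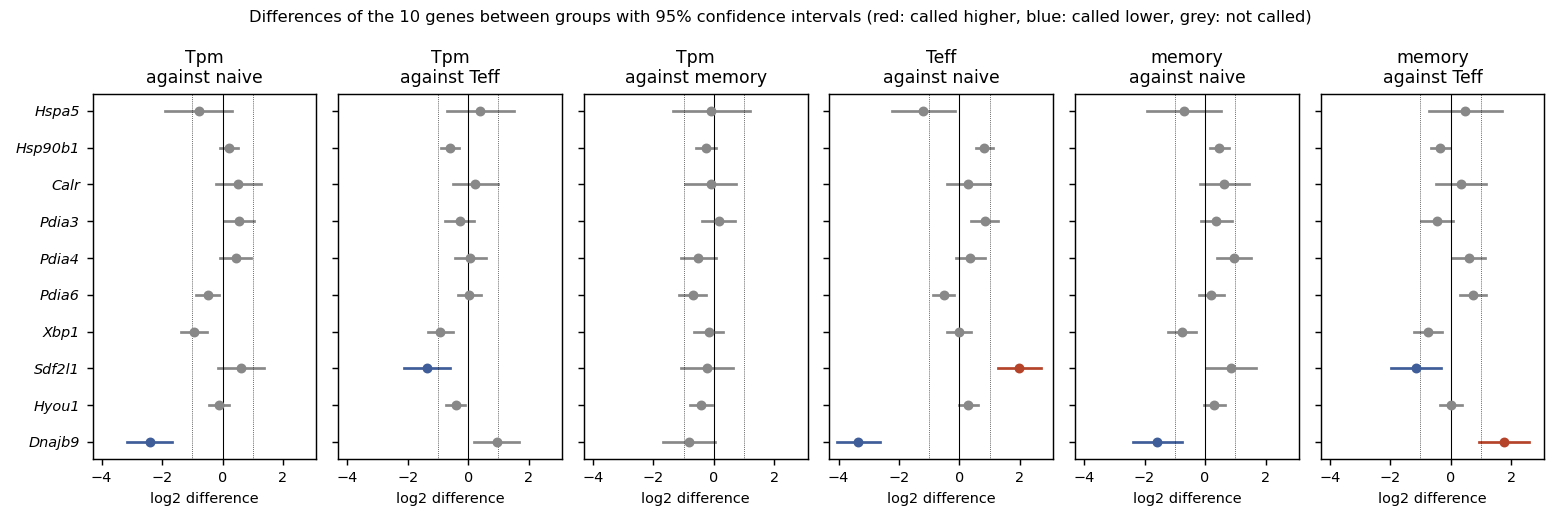
Points are the log2 differences of the 10 genes in the 6 comparisons (x axis, first group minus second) with 95% confidence intervals from limma, and dotted lines mark 2-fold. Dnajb9 is called lower against naive cells in the 3 panels that hold them and higher in memory cells than in Teff, and Sdf2l1 is called higher in Teff than in naive cells.

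Inside the groups, after the group means were taken away, Pdia4 and Sdf2l1 went together most closely (Pearson r = 0.84 over 17 arrays), and Hspa5 and Dnajb9 also did (0.59). Pdia3 ran against Dnajb9 (-0.68) and Hspa5 against Sdf2l1 (-0.63). Of 45 pairs 8 were above 0.5 and 4 below -0.5. The arrays share their sample number ranges and their signal level, so these values are a description. The genes outside the 10 with the level most like the mean of the 10 were Cyrib (r = 0.83 over 17 arrays), Cd82, Wdr70, Atg3, Uimc1, Mrpl24, Tespa1, Hnrnph1, Rbmx and Ints1 (0.66). No gene of the 10 correlated with the mean of the other 9 above the 0.48 of Pdia6, and Dnajb9 lay at -0.49.

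Of the pathway lists read around the 10 genes, that of the branch of PERK and Atf4 held the largest differences. What moved its genes, by way of PERK or otherwise, was not tested. Of 12 genes tested, 6 were higher and 2 lower in Teff than in naive cells (13.2% and 10.4% of all genes), with a median of 1.31. Asns, the asparagine synthetase, was at 11.56 ± 0.27 in Teff and 4.51 ± 0.14 in naive cells (SD, n = 5 each), a fitted difference of 7.05 (limma adjusted p = 1.03e-10), with 2.71 and 4.99 on its other probes. Its probe was above background on only 1 of 5 naive arrays and 2 of 3 memory arrays, so the sizes of its differences from these groups are not exact. Ddit4, which restrains mTORC1, was higher by 5.95 (limma adjusted p = 1.17e-08). Vldlr, the very low density lipoprotein receptor, was at least 17.4-fold higher on the probe that stands for it, which no naive array measured above background, and by 3.55 and 4.13 on other probes.

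Ppp1r15a, the phosphatase subunit that reverses the block of translation, was lower by -3.45 in Teff than in naive cells (limma adjusted p = 3.61e-05), and the transcription factor Cebpb by -1.38. Tpm had 2 genes of the list higher than naive cells (8.3% of all genes), Asns (4.23, with 0.14 and 1.94 on its other probes) and Ddit4 (2.92), and 1 lower (4.75%), Ppp1r15a (-4.44). Against Teff, 7 of 12 were lower and 0 higher in Tpm (7.62% and 7.35% of all genes), with the largest differences in Vldlr (-4.10), in Chac1, which degrades glutathione (-3.33), and in Ddit4 (-3.03). Memory cells also had 7 lower and 0 higher than Teff (15.1% and 10.6% of all genes), led by Asns (-5.40), with Ddit4 at -4.21 and Vldlr at least 11.7-fold lower.

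Against naive cells, memory cells had Ddit4 (1.74) and Asns (1.65) higher and Ppp1r15a (-2.63) and Cebpb (-1.97) lower. Asns lost that call without memory 3 or without memory 9, and Ddit4 without memory 3, memory 9 or naive 11, and the other Asns probes gave 0.15 and 0.15. Tpm against memory cells had 2 higher (9.51% of all genes), Asns (2.58, with -0.01 and 1.80 on its other probes) and the pseudokinase Trib3 (1.02, with 0.08 and 0.30 on its other probes). It had 1 lower (5.09%), Ppp1r15a (-1.81). Trib3 and Ppp1r15a were lost on leaving out any of several single arrays. Without memory 3 and memory 5 Ppp1r15a was at 0.55.

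Among the sensors, Eif2ak3, the kinase PERK itself, was lower than in naive cells in Tpm (-1.05, limma adjusted p = 0.00135), in Teff (-1.21, adjusted p = 9.06e-05) and in memory cells (at least 2.33-fold, adjusted p = 2.35e-06), where its probe was not well above background. In Tpm the difference fell under 2-fold without Tpm 4, Tpm 15 or naive 12. Tpm were at least 1.12-fold above memory cells in Eif2ak3, a call lost without memory 3 and memory 5 (1.01, adjusted p = 0.083). Ern1, which encodes IRE1, was higher in memory cells, at 8.09 ± 1.44 (SD, n = 3), than in naive cells by 2.21 (limma adjusted p = 0.00234) and than in Teff by 2.39 (adjusted p = 0.000499). Tpm lay -1.80 below memory cells in Ern1, a call lost without memory 9.

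With median scaling Ern1 no longer passed in memory against naive cells (0.93) or against Teff (0.82). Creb3, an ER-bound transcription factor, was higher in memory cells than in Teff (2.01; 1.06 on its other probe) and lower in Teff than in naive cells (-1.21; -0.67). The second of these was lost on leaving out any of 6 single arrays, and under median scaling the first was 0.00, where the median of all genes was -1.09. Creb3l2, of the same family, was lower in memory cells than in Teff (-1.002, lost without memory 5, Teff 6 or Teff 17). Against naive cells, 1 of the 8 sensor genes tested was lower and 0 higher in Tpm, 2 and 0 in Teff and 1 and 1 in memory cells. The shares of all genes lower and higher were 4.75% and 8.3% in Tpm, 10.4% and 13.2% in Teff and 6.85% and 5.54% in memory cells.

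Other ER chaperones and oxidoreductases, 17 genes tested, included 4 higher and 1 lower in Teff than in naive cells (13.2% and 10.4% of all genes). The prolyl isomerase Fkbp2 was higher by 1.87 (limma adjusted p = 0.00123; its other probe gave 0.23), the folding factor Cnpy2 by 1.60 and P4hb, the founding protein disulfide isomerase, by 1.36, while the oxidase Ero1b was lower by -1.11. Tpm had Cnpy2 (1.58) and the prolyl isomerase Fkbp11 (1.58) higher and Ero1b (-1.42) lower than naive cells. Memory cells had the disulfide isomerase Txndc5 higher than naive cells by 2.14 (limma adjusted p = 2.98e-06), and Ero1b lower by -1.29, lost without memory 5.

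Dnajc3, a co-chaperone of Hspa5 that also restrains PERK, was higher than in Teff in Tpm (1.14, lost without Tpm 7) and in memory cells (1.22). Tpm had Fkbp2 lower than Teff (-1.28, lost without any of 6 single arrays). Against memory cells Tpm had Fkbp11 at least 2.03-fold and Cnpy2 1.08 higher (the second lost without memory 3) and Txndc5 -1.26 lower. Memory cells had 2 of the 17 higher and 5 lower than Teff (10.6% and 15.1% of all genes), among them Txndc5 at 1.47, Fkbp2 at -2.37, Sil1, which like Hyou1 exchanges the nucleotide of Hspa5, at -1.54 and Fkbp11 at least 1.48-fold lower. The other Fkbp2 probe gave 0.30 for that comparison. Under median scaling Txndc5 in memory cells was 0.37 from naive cells and -0.66 from Teff and Dnajc3 was -0.55 from Teff, and none of these passed.

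Of 12 genes of ER-associated degradation, limma called 0 in Tpm against naive cells (5 at an unadjusted p under 0.05), where 8.3% of all genes were higher and 4.75% lower. The ubiquitin ligase Syvn1 was lower in Teff (-1.20) and its partner Sel1l lower in memory cells (-1.05, with -0.11 and -0.41 on its other probes, lost without memory 3 or memory 5). Edem1, which sorts glycoproteins for degradation, was lower in memory cells than in Teff (-1.41, lost without any of 4 single arrays). Of 22 genes of translocation and signal peptide cleavage, the signal peptidase subunit Spcs3 was higher than in naive cells in Tpm (1.15) and in Teff (1.15). The other Spcs3 probe gave 0.66 in Tpm and 1.78 in Teff. Serp1, a stress-induced partner of the translocon, was lower in Teff than in naive cells (-1.41) and higher in Tpm than in Teff (1.13).

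Of the same list, memory cells had 4 genes lower than Teff (15.1% of all genes), with Srp54a (-1.54), Ssr1 (-1.48, with -0.10 on its other probe, lost without memory 5) and Ssr3 (-1.37) the largest, and Srp54a lower than naive cells (-1.18), a call lost on leaving out any of 6 single arrays. Of 13 genes of N-glycosylation, Dpagt1, which starts the sugar chain, was higher than in naive cells in Tpm (1.65, limma adjusted p = 6.86e-06), in Teff (1.71, adjusted p = 6.98e-07) and in memory cells (1.11, adjusted p = 0.00103). The memory call was lost without memory 5, and median scaling gave -0.52, where the median of all genes was -0.79. Tpm had Alg8 higher than memory cells (1.46; 0.59, 0.47 and 0.44 on its other probes), and memory cells had Alg2 (-1.57; -0.89 on its other probe), Alg8 (-1.45; -1.08 to -0.65) and the oligosaccharyltransferase subunit Stt3b (-1.08) lower than Teff. The Alg2 and both Alg8 calls were lost without memory 5.

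Chaperones of the cytosol and mitochondria, 20 genes tested, gave 0 calls with limma in Tpm against naive cells (5 at an unadjusted p under 0.05), and 2 higher in Teff (13.2% of all genes), St13 (1.11) and Hsp90aa1 (1.06), each lost on leaving out any of 4 single arrays. The other Hsp90aa1 probe gave 0.74 in Teff against naive cells. Against Teff, Tpm had the inducible chaperone Hspa1a at least 1.96-fold and Hsp90aa1 (-1.25; -0.70 on its other probe) lower. Memory cells had Hsph1 (1.65) higher and 5 genes lower than Teff (10.6% and 15.1% of all genes), led by Hspa1a, at least 1.32-fold, St13 (-1.44) and Cct2 (-1.18). St13 was lost without memory 5 and Cct2 without memory 3 or memory 5, and under median scaling Hsph1 was at -0.49 and did not pass.

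Other scaling, or fewer memory arrays, ended further calls of these lists. Under median scaling, Ero1b in Tpm (-1.32) and Teff (-0.78), Spcs3 in Tpm (1.32), and Syvn1 (-0.92) and Cebpb (-1.06) in Teff no longer passed against naive cells, nor did Dnajc3 (0.95), Fkbp2 (-1.56) and Serp1 (0.92) in Tpm against Teff. Ddit4 in memory against naive cells (1.03) was lost as well, and Txndc5 (0.68), Ern1 (-0.40) and Ppp1r15a (-0.08) in Tpm against memory cells. Without memory 3 and memory 5, which leaves 1 memory array that is assumed to vary like the other groups, memory cells against Teff also lost Fkbp2 (-1.49), Srp54a (-0.96), Hsph1 (1.65) and Hspa1a.

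**Figure D4:**
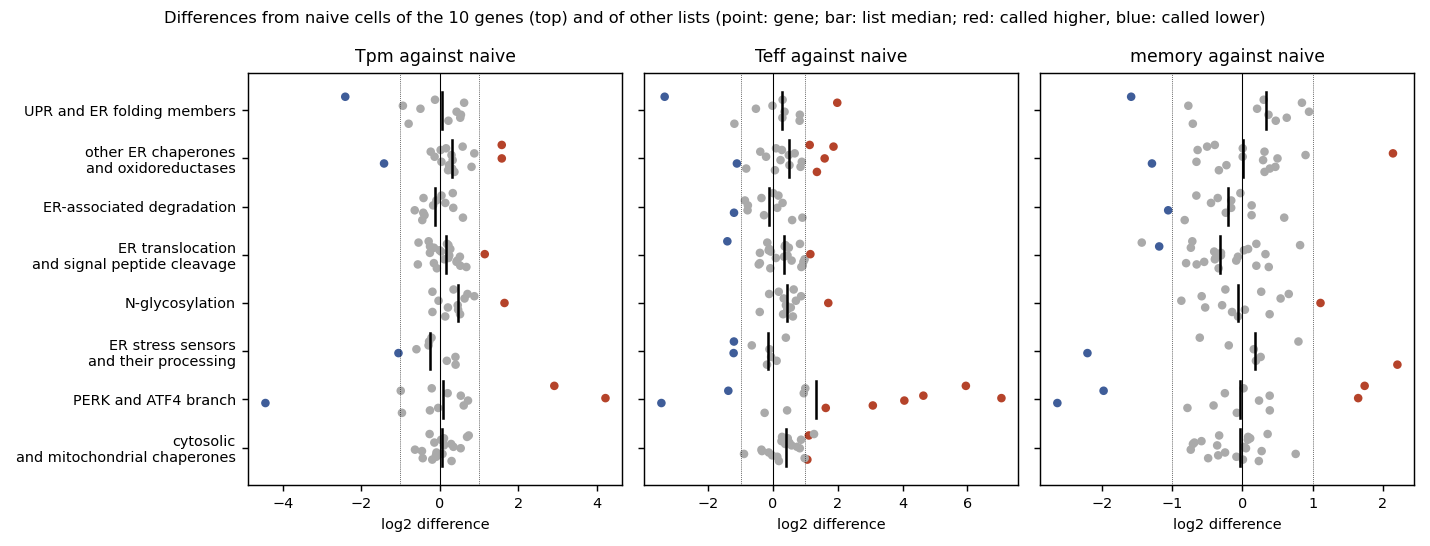
Points are genes, placed by their log2 difference from naive cells (x axis) in Tpm, Teff and memory cells. Each line of points is a list, black bars are list medians, red and blue points were called higher and lower, and dotted lines mark 2-fold: the branch of PERK and Atf4 reaches a fitted 7.05 in Teff (Asns, above background on 1 of 5 naive arrays), and the 10 genes, on the top line, stay between -3.34 and 1.98.

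Markers of other cells moved with some groups. Tpm had 12 of 17 LSEC markers tested higher than naive cells and 0 lower, and their summed corrected intensity was 4814 to 7985 in Tpm, 1223 to 1664 in Teff, 2046 to 3053 in memory cells and 276 to 659 in naive cells. Above background were 15 to 17 of the 17 in Tpm, 6 to 8 in Teff, 3 to 9 in memory cells and 3 to 7 in naive cells. Memory cells had 2 of 17 higher and 1 lower than naive cells, and Teff 4 and 1. The shares of all genes higher and lower than in naive cells were 8.3% and 4.75% in Tpm, 5.54% and 6.85% in memory cells and 13.2% and 10.4% in Teff. Other probes of Fcgr2b lay 2.51 and 4.67 higher in memory than in naive cells. Lyve1 and Ptprb were above background on all 4 Tpm arrays and on none of the other groups. Of 6 stromal markers 6 were higher in Tpm than in naive cells (sums of 1065 to 2233 in Tpm, 23.5 to 39.7 in Teff, 26.1 to 303 in memory cells and 22.4 to 31.7 in naive cells). Their part in the Tpm values of the 10 genes was not tested.

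Of 5 erythroid markers, 5 were lower than in naive cells in Tpm and in Teff (sums of 17.0 to 32.1 in Tpm, 14.7 to 26.4 in Teff, 5896 to 15160 in memory cells and 6016 to 35213 in naive cells). Their part in the differences from naive cells was not tested. Plasma cells have a large ER, so their markers and those of B cells were read as well: Jchain, Derl3 and Pax5 were not above background on any array. Cd79b was above background on every array, and Pou2af1 on 4 Tpm, 3 Teff, 3 memory and 5 naive arrays. Mzb1 and Sdc1 were so on some arrays of several groups, and Ms4a1 on 2 Teff arrays. Of the 4 tested only Pou2af1 was called (-3.02 in Teff and -1.06 in memory cells against naive cells, 2.94 in Tpm and 1.96 in memory cells against Teff). The sum of those 4 was 236 to 417 in Tpm, 76.8 to 107 in Teff, 165 to 506 in memory cells and 283 to 452 in naive cells.

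Of 6 dendritic cell markers, 2 were higher and 1 lower in Teff than in naive cells, with sums of 243 to 3192 in Tpm, 1985 to 3318 in Teff, 234 to 1137 in memory cells and 180 to 972 in naive cells. The 2 higher were Batf3 (3.09 on its other probe) and H2-Ab1 (1.49 and 2.33 on its other probes). Fscn1 was above background on 3 Tpm and 4 Teff arrays and on no memory or naive array. Siglech was so on 4 Tpm, 4 Teff, 2 memory and 5 naive arrays. Itgax was above background on 2 memory arrays only, and Xcr1, Cd209a and Ccl17 on none. Macrophage markers (8 tested) summed to 97.4 to 3711 in Tpm, 35.3 to 51.7 in Teff, 108 to 403 in memory cells and 102 to 955 in naive cells. Tpm 14 alone gave the highest Tpm sum of macrophage and of dendritic cell markers, with 8 of 8 macrophage markers above background, and the other Tpm arrays gave macrophage sums of 97.4 to 236. Alb, Apoa1, Cyp2e1 and Fabp1 of hepatocytes were not above background on any array. The part of these cells in the values of the 10 genes was not tested.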

How the data were processed

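RNA of 17 samples was measured on Illumina mouse arrays, from total RNA extracted with QIAzol and labelled with biotin, per the labels' protocols. Which scanner and software read the arrays is not stated in what was used here. The authors deposited non-normalized linear intensities, per the file headers, and the values show that no background had been subtracted. The authors' value table also holds deposited intensities. Compared column by column with the first table, probes ranked identically and each sorted column matched the mean sorted signal with a largest gap of 3.09 (quantile normalization). The median was 97.8 in every column. Its scale is linear and its genes were not centred.

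The members and gene lists were chosen with earlier results of these data known. On each array the mode of the signals gave the mean of the background and the signals below it the SD. Signals were corrected with normexp, raised by an offset of 16, quantile normalized and log2 transformed. A probe was above background when it lay 2.326 SD over the mode (one-sided p of 0.01), and the 20204 probes so on at least 3 arrays were kept. Probes were named by the platform's annotation (34885 with 1 symbol, 18 with several, 10378 with none, of which only the first are named), and 34807 matched the reference gene table. The brightest kept probe stood for a gene.

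Differences were tested with limma 3.58.1 (R 4.3.3), 1 coefficient per group over all arrays, two-sided, with Benjamini-Hochberg adjustment over 10717 genes in each of 6 comparisons. A group with no array above background has only a bound: the brighter mean is set against the dimmer arrays, each raised to its lowest value above background (4.65 to 4.97, and 6.42 on memory 5). The fit was tested on simulated data. Named are all 10 genes, up to 3 called genes of each pathway list per direction with the largest difference, and the 10 genes whose level is most like the mean of the members. Alternatives changed the background correction, offset, scaling, filter, probe, samples in the fit, variance model and array weights and left out arrays. Those by sample number alone and those for the lists were chosen after seeing the data.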

Additional observations from a re-analysis of the deposited data

Results flagged for a closer look

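Hyou1 on Teff 10 had a log2 level of 4.58, where the other 4 Teff arrays lay between 4.84 and 4.93. Its gap to the nearest of them was 0.747 of the range of the group, above the 0.71 that Dixon's test allows for 5 samples. The probe was not above background on Teff 10. Over 30 groups of a gene that were tested in this way, 1 stood out, and chance gives about 1 in 20. The memory group, with 3 arrays, was not tested.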

How the results depend on the processing

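Of 1884 recomputed differences of the 10 genes under 32 alternatives, 1835 stayed on their side of the threshold, 16 lost their call, 29 gained one and 4 reversed. Reversed means a changed sign with a call in either the main or the alternative fit. No call became a call in the other direction. Among the 1835, 62 changed sign without a call, 21 of them under median scaling. Dnajb9 against naive cells kept its call in Tpm (-2.67 to -2.06), Teff (-3.58 to -2.79) and memory cells (-3.29 to -1.36) under all of them, as did Sdf2l1 in Teff against naive cells (1.02 to 2.42). Median scaling, which moved the median of all genes to 1.02 in Tpm against memory cells, -0.79 in memory against naive cells and -1.09 in memory cells against Teff, reversed 4: Hsp90b1 (1.69) and Xbp1 (1.74) in Tpm against memory cells, and Pdia4 (-1.46) and Dnajb9 (-0.24) in memory cells against Teff. It called 3 of the 10 genes in the first of these comparisons, 2 in the second and 5 in the third, where 4551, 3683 and 5175 of all genes were called and quantile normalization called 1565, 1328 and 2745. These were 4496 higher and 55 lower, 83 and 3600, and 102 and 5073, against 1019 and 546, 594 and 734, and 1132 and 1613. For Tpm against naive cells it gave 671 higher and 225 lower, against 889 and 509, for Tpm against Teff 379 and 813, against 788 and 817, and for Teff against naive cells 1727 and 543, against 1413 and 1116.

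In Tpm against Teff, with 1 call, 0 were left without background correction or with the authors' values, and 2 were called without naive 13, Tpm 14 and Teff 17, with the number ranges as a covariate, or within arrays 1 to 11 or 12 to 17. In memory cells against Teff, with 2 calls, 1 was left without background correction, with an offset of 50, with the authors' values, with no filter on dim probes, without naive 13, Tpm 14 and Teff 17, with the covariate and within arrays 1 to 11, and 0 without memory 3 and memory 5. Memory against naive cells, with 1 call, had 4 with the covariate and 2 within arrays 1 to 11. Tpm against naive cells, with 1 call, had 2 within arrays 12 to 17. Leaving out 1 array at a time gave 1 to 2 calls in Tpm against naive cells, 0 to 2 in Tpm against Teff, 1 to 2 in memory against naive cells and 1 to 2 in memory cells against Teff. The causes were not tested. Over all genes, the count without background correction was 544 in Tpm against naive cells, 729 in Tpm against Teff, 621 in Tpm against memory cells, 1276 in Teff against naive cells, 531 in memory against naive cells and 1416 in memory cells against Teff, and with the authors' values 595, 795, 681, 1389, 596 and 1525. An offset of 50 gave 863 in Tpm against naive cells, 1069 in Tpm against Teff, 1002 in Tpm against memory cells and 841 in memory against naive cells. Testing every probe gave 2209, 2545, 2545, 4377, 2334 and 4676 of 20204, as more features were tested. No paired analysis was run: sample numbers run on over all groups, and the labels do not say whether samples of different groups belong together. Pdia6 and Hyou1 lay near background, and on memory 5 only values above 6.42 were measured, which limits what low levels can show.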
